A study of Mus musculus with 6 samples.

Results

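The NADPH oxidase of phagocytes was examined in RNA-seq libraries of mouse gonadal white adipose tissue (gWAT) through 6 genes, *Cybb*, *Cyba*, *Ncf1*, *Ncf4*, *Rac2* and *Nox4*, which were found in the deposited read-count table by their NCBI gene identifiers and make up 6 of its 19790 rows. All 6 rows passed the filter on low counts. The tissue came from wild-type C57BL/6 mice that received a normal chow diet (NCD) or a high-fat diet (HFD), with 3 mice per diet and 1 library per mouse. Both diets were given for 8 weeks, starting at an age of 6 weeks by the sample labels and at 8 weeks by the methods of the study. No gene was altered and no agent was given in either group, so the labels separate the groups by diet alone. Total RNA was extracted from the tissue, and the comparison asks how RNA levels differed between diets in a mixture of adipocytes, leukocytes, vessels and stroma. In such bulk tissue more cells of a type and more RNA per cell cannot be told apart.

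The phagocyte oxidase is a multi-subunit enzyme that moves electrons from cytosolic NADPH across the membrane to oxygen and so makes superoxide, the starting point of the oxidative burst of neutrophils and macrophages. Its catalytic core, gp91phox (NOX2), is encoded by *Cybb* and sits in the membrane with its stabilising partner p22phox, encoded by *Cyba*. At rest the cytosolic subunits, p47phox (*Ncf1*) and p40phox (*Ncf4*) among them, are kept apart from that core, and on stimulation they move to it together with the GTPase RAC2. *Nox4* encodes a homologue of gp91phox that also needs p22phox but not the cytosolic subunits, is always active, releases mainly hydrogen peroxide and is known chiefly from fibroblasts, vessels, kidney and adipocytes.

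Total counts lay between 49575113 and 66360046 per library. One NCD library stood apart, as 11 secretory genes of the seminal vesicle, a gland that lies next to this fat pad, took 58.6% of the reads of NCD replicate 1, against 11.2% and 2.30% in the other NCD libraries and 2 to 8 counts in each HFD library. Levels were therefore scaled by trimmed mean of M-values (TMM) and are given as TMM-scaled CPM, the counts of a gene per 1000000 counts of the scaled library, and each call of the 6 oxidase genes is also given without NCD replicate 1. The fit without that mouse still holds the NCD libraries with 11.2% and 2.30%. Seminal vesicle RNA was thus present in every NCD library and nearly absent on HFD, so its effect cannot be told apart from that of diet in either fit. The adipocyte markers, *Adipoq* and *Plin1* among them, summed to between 5577 and 28676 CPM on NCD and between 12354 and 16292 CPM on HFD. Their lowest sum was that of NCD replicate 1.

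*Cybb* (gene 13058, GRCm38 chromosome X, 9435252 to 9487771, minus strand) was read at 29.8, 63.6 and 43.8 CPM in the NCD mice and at 245, 131 and 151 CPM in the HFD mice. Every HFD mouse was above every NCD mouse, and HFD replicate 1 was the highest. The means were 45.8 ± 17.0 CPM on NCD and 176 ± 60.9 CPM on HFD (SD, n = 3), a 3.84-fold difference, or 1.94 on the log2 scale (SE 0.37, adjusted p = 0.0375 in the quasi-likelihood test of edgeR after Benjamini-Hochberg adjustment over all genes tested). Without NCD replicate 1 the log2 difference was 1.72 (adjusted p = 0.0220 by the same test).

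*Cyba* (gene 13057, chromosome 8, 122424776 to 122432930, minus strand) was read at 17.9, 33.9 and 28.0 CPM on NCD and at 160.0, 115 and 152 CPM on HFD. The groups again did not overlap, and here HFD replicates 1 and 3 lay close together with replicate 2 below them. The means of 26.6 ± 8.13 and 143 ± 24.0 CPM (SD, n = 3) differed 5.35-fold, which is 2.42 on the log2 scale (SE 0.29, adjusted p = 0.0212, edgeR) and 2.22 without NCD replicate 1 (adjusted p = 0.00611). The stabilising partner and the catalytic subunit thus both rose.

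Among the cytosolic subunits, *Ncf1* (gene 17969, chromosome 5, 134220053 to 134229625, minus strand), the organiser that carries the others to the membrane, was read at 11.8, 25.9 and 26.1 CPM on NCD and at 97.0, 102 and 144 CPM on HFD. Its lowest HFD mouse was more than 3 times its highest NCD mouse. The means were 21.3 ± 8.17 and 114 ± 25.7 CPM (SD, n = 3), 5.37-fold apart (log2 2.43, SE 0.36, adjusted p = 0.0237, edgeR), and the log2 difference without NCD replicate 1 was 2.15 (adjusted p = 0.00667). Of the 50-base stretches of its transcripts, 7.89% also occur in transcripts of other genes, *Gtf2ird2* and *Zhx3*, so a small share of its reads could have been assigned either way.

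*Ncf4* (gene 17972, chromosome 15, 78244801 to 78262580, plus strand), whose product binds a phosphoinositide of the phagosome membrane, was the lowest of the phagocyte subunits in CPM, with 3.44, 7.04 and 6.14 on NCD. The HFD mice had 31.4, 25.7 and 41.8 CPM, and no mouse crossed between the groups. The rise from 5.54 ± 1.87 to 33.0 ± 8.19 CPM (SD, n = 3) was 5.94-fold, or 2.57 on the log2 scale (SE 0.34, adjusted p = 0.0219, edgeR), the highest point estimate of the 6 genes. Without NCD replicate 1 it was 2.34 (adjusted p = 0.00686).

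*Rac2* (gene 19354, chromosome 15, 78559167 to 78572783, minus strand) encodes the GTPase of blood cells that switches the assembled oxidase on. It was read at 13.9, 30.0 and 22.9 CPM on NCD and at 83.1, 72.1 and 99.7 CPM on HFD, with every HFD mouse above every NCD mouse. The means were 22.3 ± 8.09 and 85.0 ± 13.9 CPM (SD, n = 3), a 3.81-fold difference (log2 1.93, SE 0.31, adjusted p = 0.0258, edgeR), and the log2 difference was 1.70 without NCD replicate 1 (adjusted p = 0.00810). The widely expressed *Rac1*, the other RAC gene read here, stood at 285 ± 26.2 CPM on NCD and 359 ± 21.9 CPM on HFD (SD, n = 3), and its log2 difference of 0.33 did not pass (adjusted p = 0.264, edgeR).

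*Nox4* (gene 50490, chromosome 7, 87246096 to 87398710, plus strand) was read at 1.46, 1.66 and 1.49 CPM in the NCD mice, from 48, 99 and 80 counts, and at 6.12, 7.84 and 2.79 CPM in the HFD mice, from 353, 654 and 175 counts. The NCD mice were nearly equal, whereas the HFD mice ranged widely, with replicate 3 nearest to the NCD level and still above it. The log2 difference of 1.86 (SE 0.43), from 1.54 ± 0.105 to 5.58 ± 2.57 CPM (SD, n = 3), missed the threshold with all 6 mice (adjusted p = 0.0529, edgeR) and passed it without NCD replicate 1 (1.84, adjusted p = 0.0472). The order of the HFD mice also differed from that of the phagocyte subunits, since all 5 of these had a higher level in replicate 3 than in replicate 2.

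**Figure D1:**
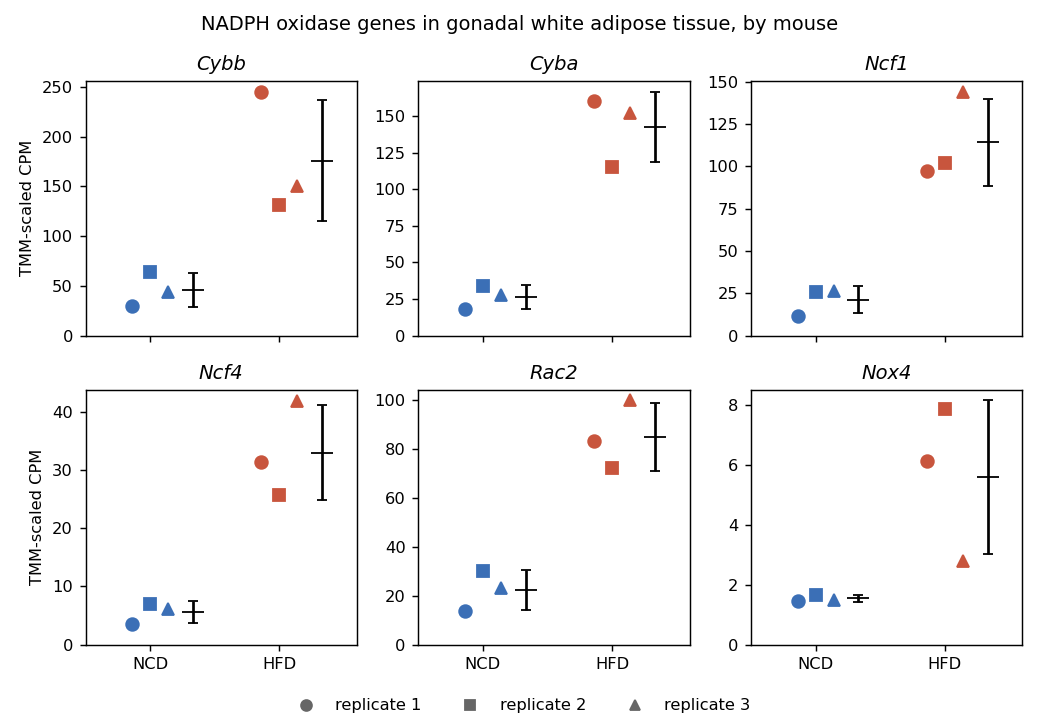
Levels of the 6 oxidase genes in each mouse, as TMM-scaled CPM, with 1 panel per gene. NCD and HFD mice are separate groups of 3 points, and the HFD points lie above the NCD points in every panel. *Nox4* is the lowest gene, and its HFD group is the widest relative to its mean.

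In all, 5 of the 6 genes were higher on HFD at an adjusted p under 0.05, where 5.58% of the 15241 genes tested were called higher and 1.9% lower. Without NCD replicate 1 all 6 were called higher, where 10.7% of 15510 genes were called higher and 10.1% lower. In all 6 genes every HFD mouse was above every NCD mouse, which held for 20.5% of all genes tested. The median log2 difference of the 6 genes was 2.18 with all mice, against -0.08 over all genes tested, and 1.996 without NCD replicate 1, against 0.02. These calls depended on which mouse was left out. When replicate 2 or 3 of the NCD mice or any of the 3 HFD mice was left out, 0 of the 6 genes passed in edgeR, all 6 kept an unadjusted p under 0.05, and only 2 to 7 genes of the whole table were called. The adjusted p of the 5 called genes then lay between 0.0561 and 0.124 and that of *Nox4* between 0.0971 and 0.172.

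**Figure D2:**
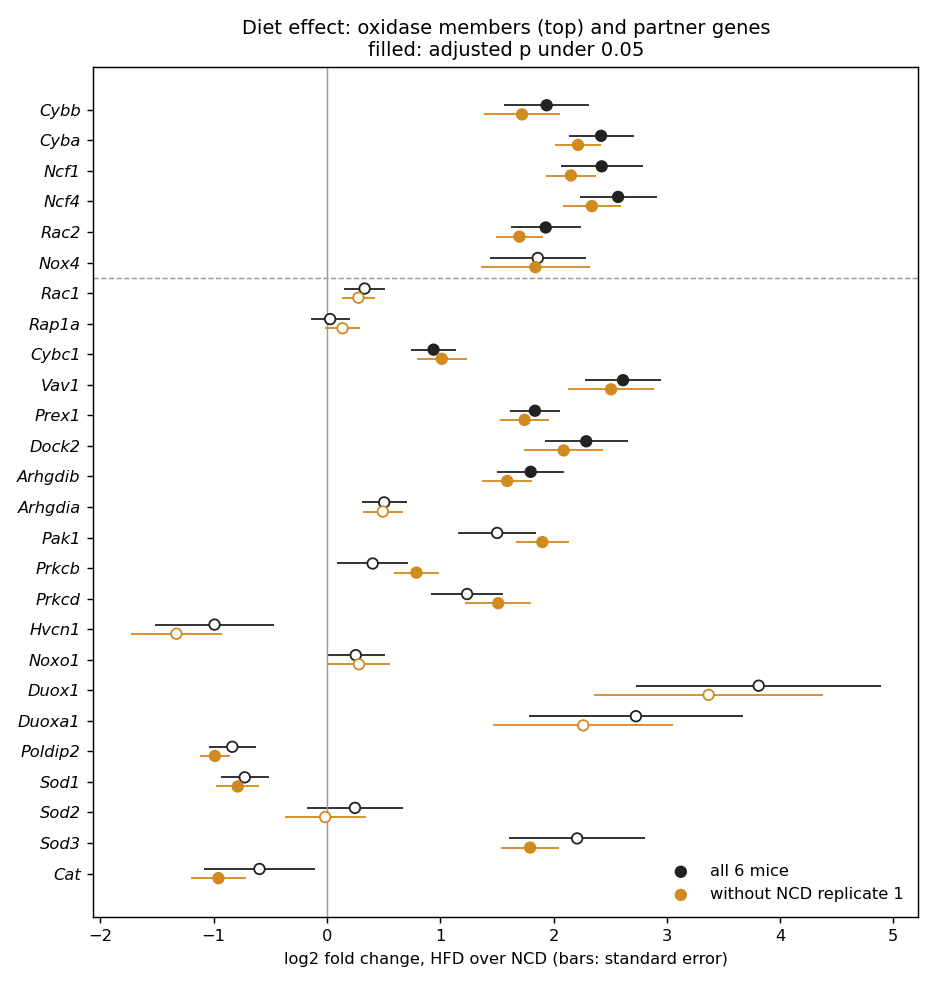
Log2 differences (HFD minus NCD) with their standard errors from edgeR for the 6 oxidase genes and their partner genes, with all 6 mice and without NCD replicate 1; the phagocyte subunits lie between 1.93 and 2.57 with all mice, while *Rac1* lies at 0.33.

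RefSeq promoter windows (GRCm38.p6) were found for 4 of the 6 genes, and no entry was used for *Ncf4* and *Rac2*. The 250 bases before the RefSeq start are printed on the strand of the gene, because *Cybb*, *Cyba* and *Ncf1* rose together and *Nox4* varied differently among the HFD mice. They lie at chrX:9469325-9469574 (minus strand) for *Cybb*, chr8:122432941-122433190 (minus strand) for *Cyba*, chr5:134229626-134229875 (minus strand) for *Ncf1* and chr7:87246399-87246648 (plus strand) for *Nox4*. The RefSeq starts of *Cybb* and *Nox4* lie inside the GENCODE gene limits given above, and the reason was not examined. Capitals mark the core AGGAA of the ETS factor family, to which the myeloid regulator PU.1 belongs, and the CCAAT box.
Cybb: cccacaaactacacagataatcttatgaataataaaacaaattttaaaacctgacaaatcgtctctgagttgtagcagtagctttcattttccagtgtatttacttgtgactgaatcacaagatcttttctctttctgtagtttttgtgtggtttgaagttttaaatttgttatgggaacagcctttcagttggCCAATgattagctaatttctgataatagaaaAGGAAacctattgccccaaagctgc
Cyba: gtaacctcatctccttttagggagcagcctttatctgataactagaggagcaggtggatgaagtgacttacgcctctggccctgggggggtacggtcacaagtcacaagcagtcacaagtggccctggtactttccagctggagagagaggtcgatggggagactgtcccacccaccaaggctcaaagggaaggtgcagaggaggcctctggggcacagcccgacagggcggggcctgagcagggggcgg
Ncf1: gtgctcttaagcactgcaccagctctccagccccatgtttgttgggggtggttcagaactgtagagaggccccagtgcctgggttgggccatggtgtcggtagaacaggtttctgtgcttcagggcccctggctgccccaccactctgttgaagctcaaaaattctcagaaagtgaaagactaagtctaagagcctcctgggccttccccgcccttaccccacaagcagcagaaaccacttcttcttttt
Nox4: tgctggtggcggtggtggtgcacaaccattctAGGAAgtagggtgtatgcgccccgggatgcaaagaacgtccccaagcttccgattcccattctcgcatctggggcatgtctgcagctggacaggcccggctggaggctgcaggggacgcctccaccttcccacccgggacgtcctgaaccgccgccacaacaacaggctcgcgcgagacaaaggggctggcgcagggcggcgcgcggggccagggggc
The letters were searched on both strands. AGGAA stood 25 to 21 bases before the start of *Cybb* and 218 to 214 bases before that of *Nox4*, and 60.3% of 32851 promoter windows of the same length hold it. CCAAT stood 56 to 52 bases before the start of *Cybb* and is held by 33.8% of windows. The longer PU.1 core GAGGAA, which contains AGGAA and is held by 23.3% of windows, was in none of the 4 windows. No searched letters were in the *Cyba* and *Ncf1* windows. These matches describe the windows only.

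Levels can be set between genes only per length, and FPKM values were computed by dividing the TMM-scaled CPM by the exon length of each gene in units of 1000 bases. On NCD the order was *Cyba* (35.8 ± 10.9 FPKM), *Cybb* (9.63 ± 3.58), *Ncf1* (7.38 ± 2.83), *Rac2* (7.33 ± 2.66), *Ncf4* (3.78 ± 1.28) and *Nox4* (0.389 ± 0.0267; SD, n = 3). *Cyba* was above *Cybb*, *Cybb* above *Ncf1*, *Rac2* above *Ncf4* and *Ncf4* above *Nox4* in 3 of 3 mice, whereas *Ncf1* exceeded *Rac2* in 1 of 3, so these neighbours were not separated. On HFD the order was *Cyba* (192 ± 32.2 FPKM), *Ncf1* (39.7 ± 8.91), *Cybb* (36.9 ± 12.8), *Rac2* (28.0 ± 4.58), *Ncf4* (22.5 ± 5.595) and *Nox4* (1.41 ± 0.650; SD, n = 3). *Ncf1* was above *Cybb* and *Cybb* above *Rac2* in only 2 of 3 mice, and the other neighbours kept their order in 3 of 3. On both diets the RNA of the membrane partner p22phox, which also serves *Nox4*, was therefore the most abundant per length, and that of *Nox4* the least.

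**Figure D3:**
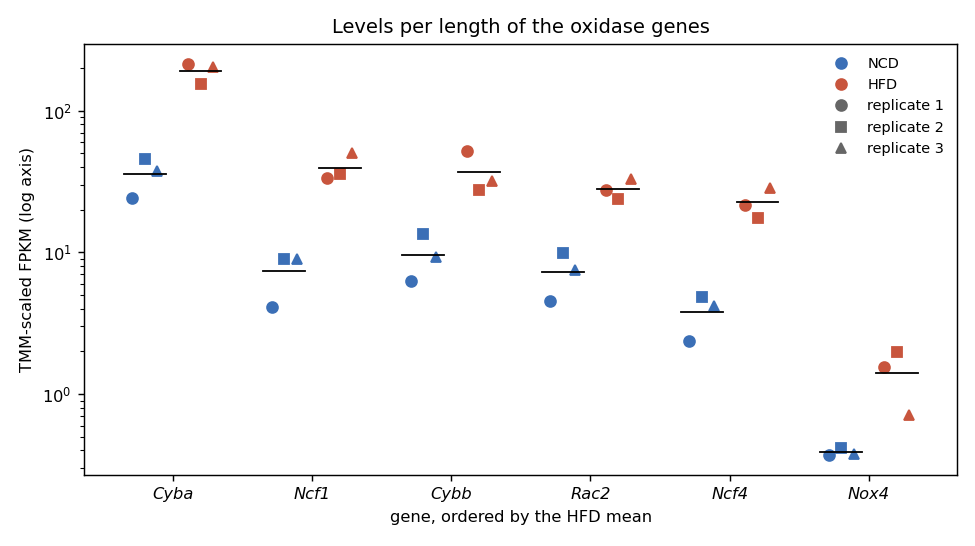
Levels per exon length (TMM-scaled FPKM, log axis) of the 6 oxidase genes in each mouse on NCD and HFD; *Cyba* is highest and *Nox4* lowest on both diets, and the subunits between them lie close together.

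A ratio of 2 genes within a library does not depend on the scaling between libraries, and 4 such ratios were compared by an exact two-sided permutation test, whose smallest p for 3 mice against 3 is 0.1, so that none could reach the threshold. The FPKM of *Cyba* was 3.83, 3.41 and 4.09 times that of *Cybb* on NCD and 4.17, 5.61 and 6.46 times on HFD. The diets did not overlap, although HFD replicate 1 lay next to the NCD mice, and the difference was 0.50 on the log2 scale (exact permutation p = 0.1, 0.2 adjusted over the 4 ratios). The ratio of *Rac2* to *Rac1* was 0.0750, 0.144 and 0.103 on NCD and 0.322, 0.297 and 0.364 on HFD, a log2 difference of 1.65, or 1.42 without NCD replicate 1 (exact permutation p = 0.1, adjusted 0.2). The ratio of the GTPase of blood cells to the widely expressed one was thus higher in every HFD mouse than in every NCD mouse. The ratio of *Ncf4* to *Ncf1* ran from 0.464 to 0.572 on NCD and from 0.495 to 0.638 on HFD and overlapped (log2 difference 0.12, exact permutation p = 0.4, adjusted 0.533). The ratio of *Cybb* to *Nox4* was 16.9, 31.9 and 24.4 on NCD and 33.2, 13.9 and 44.8 on HFD (log2 difference 0.22, exact permutation p = 0.7, adjusted 0.7), and the difference was -0.02 without NCD replicate 1, -0.14 without HFD replicate 3 and 0.71 without HFD replicate 2. Its spread among HFD mice covered the whole NCD range.

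Most macrophage markers rose beside the oxidase genes. Their summed level was 583, 1262 and 1158 CPM on NCD and 4474, 3136 and 3616 CPM on HFD. Of the 11 markers 7 were called higher, 0 lower and 0 were at zero in any library, where 5.58% of all genes tested were called higher. Without NCD replicate 1, 10 of 11 were called higher, where 10.7% of all genes were. The markers did not rise evenly, from *Mertk*, an efferocytosis receptor, at 0.23 (adjusted p = 0.545, edgeR) to *Cd68*, a lysosomal glycoprotein, at 3.17 (adjusted p = 0.0231). Set against the summed markers within each library, the log2 difference between diets was -0.01 for *Cybb* and 0.02 for *Rac2* (exact permutation p = 1 for each), 0.49 for *Cyba*, 0.53 for *Ncf1*, 0.64 for *Ncf4* and -0.23 for *Nox4* (exact permutation p = 0.1, 0.2, 0.1 and 0.9, and between 0.3 and 1 adjusted over the 6 genes). *Cyba* and *Ncf4* did not overlap between diets on this scale. The difference of *Nox4* rested on single mice, being 0.09 without NCD replicate 1, 0.19 without HFD replicate 3 and -0.65 without HFD replicate 2, and those of *Cybb* and *Rac2* also changed sign when single mice were left out. That of *Ncf1* was 0.33 without HFD replicate 3. The size and the sign depended on the marker: against *Adgre1* alone, which encodes F4/80, all 6 differences were negative, from -0.26 for *Ncf4* to -1.13 for *Nox4*, and against *Cd68* alone from -0.61 to -1.48. *Adgre1* (log2 difference 2.86) and *Cd68* rose more than any of the 6 oxidase genes, as did *Fcgr1* (3.16) and *Itgam* (2.64), so the negative sign follows from the marker chosen. Others, such as *C1qa* (1.48), *Csf1r* (1.62) and *Lyz2* (1.65), rose less than any of the 6, and ratios to these alone were not computed.

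The ratio of *Cybb* to *Cd68* was the tightest of these within the HFD group. It was 1.48, 1.21 and 1.20 in the NCD mice and 0.525, 0.552 and 0.540 in the HFD mice, a log2 difference of -1.26 between groups whose SDs were 0.17 and 0.04 (exact permutation p = 0.1, 0.2 adjusted over the 6 genes). Against *Adgre1* it was 1.17, 1.11 and 1.21 on NCD and 0.586, 0.623 and 0.646 on HFD, with a log2 difference of -0.91 (exact permutation p = 0.1, adjusted 0.3). The ratio of *Cybb* to either marker was thus lower in every HFD mouse than in every NCD mouse. This was not particular to *Cybb*, since it also held for *Rac2* against either marker and for *Cyba* against *Cd68*. It depended on the marker as well, since the ratio of *Cybb* to the summed macrophage markers overlapped between diets. The part of macrophage number in the rise of the oxidase genes was not tested.

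**Figure D4:**
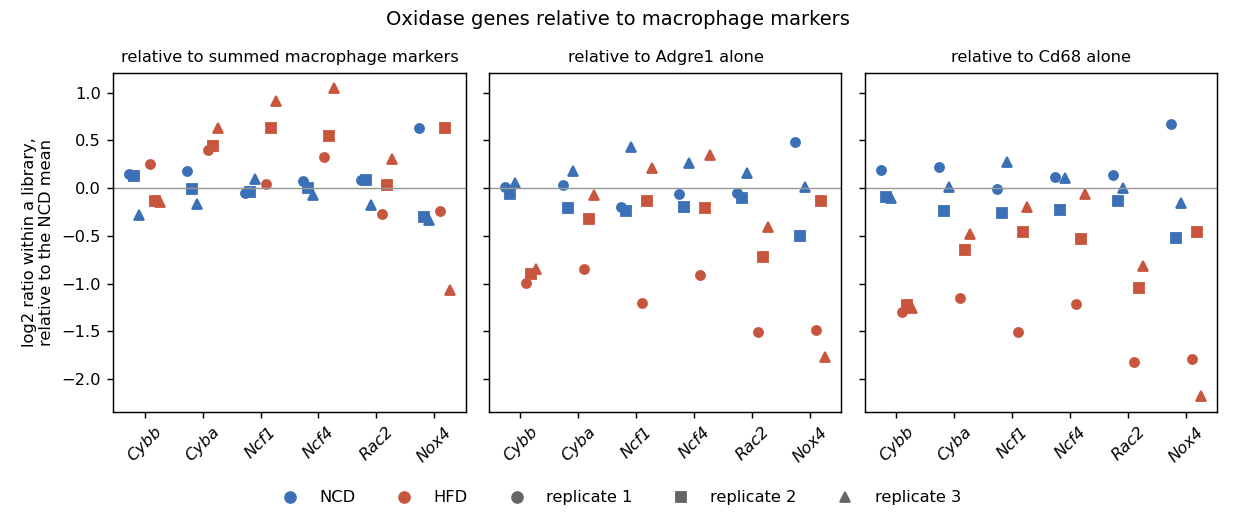
Log2 ratio of each oxidase gene to the summed macrophage markers, to *Adgre1* and to *Cd68* within each library, with NCD and HFD mice as separate points; against the sum *Cybb* and *Rac2* overlap between diets, and against *Cd68* the 3 HFD points of *Cybb* lie together below the NCD points.

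Neutrophils also carry the enzyme, and their markers differed among the HFD mice. The summed neutrophil level was 1.13, 2.26 and 1.88 CPM on NCD and 5.15, 88.4 and 274 CPM on HFD, carried by *S100a8*, *S100a9*, *Cxcr2* and *Retnlg* in HFD replicates 2 and 3. *Elane*, *Camp* and *Ltf* of the same list did not share this rise. *Elane* had 7, 15 and 35 counts on NCD and 15, 21 and 16 on HFD. *Camp* had 0, 7 and 14 against 0, 3 and 4, and *Ltf* had 24, 5 and 0 against 20, 9 and 12. None of the 5 neutrophil markers tested passed with all mice in edgeR (3 had an unadjusted p under 0.05, and DESeq2 called 3 and limma 0). Without NCD replicate 1 *S100a8* alone passed, where 10.7% of all genes were called higher. *Ly6g*, which defines mouse neutrophils, had 0 counts in every NCD mouse and in HFD replicate 1 and 7 and 11 counts in HFD replicates 2 and 3, and the granule gene *Mpo* had 0 to 4 counts in any library. In HFD replicate 1, where the neutrophil sum was 5.15 CPM, all 6 oxidase genes were above every NCD mouse, and *Cybb* and *Cyba* had their highest level. *Ncf1*, *Ncf4* and *Rac2* were highest in HFD replicate 3, which also had the highest neutrophil sum. The part of neutrophils in these levels was not tested. Stromal progenitor markers, summing to 255, 484 and 331 CPM on NCD and 795, 925 and 699 CPM on HFD, had the same order of HFD mice as *Nox4*, with replicate 2 highest and replicate 3 lowest. That order was the order of *Col1a1* and *Pi16*, while *Pdgfra* was lowest in HFD replicate 1 and *Dpt* highest there. Of these 4 markers 1, the collagen gene *Col1a1*, was called higher, where 5.58% of all genes tested were. The part of stromal cells in the level of *Nox4* was not tested.

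**Figure D5:**
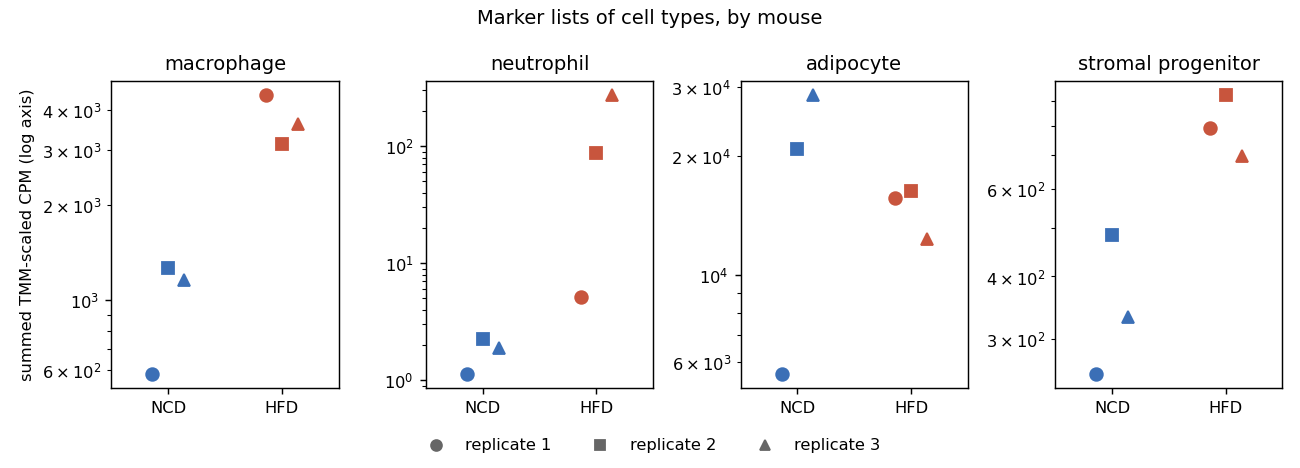
Summed TMM-scaled CPM (log axis) of the marker lists in each mouse; the macrophage sums of the HFD mice lie between 3136 and 4474, all above the NCD mice, and the neutrophil sum is high in HFD replicates 2 and 3 only.

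The wider oxidase system was followed in a list of 26 partner genes, of which 25 were in the table and 20 passed the filter. Of these 20, 5 were called higher on HFD and 0 lower (13 had an unadjusted p under 0.05, edgeR), with a median log2 difference of 0.72, where 5.58% of all genes tested were called higher and 1.9% lower. Without NCD replicate 1 it was 9 higher and 3 lower, where 10.7% and 10.1% of all genes were called. Of the 3 assembly genes, *Cybc1*, the endoplasmic reticulum chaperone needed for a stable gp91phox and p22phox pair, was called higher. It was read at 31.5, 28.3 and 28.0 CPM on NCD and at 44.4, 53.5 and 70.6 CPM on HFD (log2 difference 0.94, SE 0.20, adjusted p = 0.0465, edgeR, and 1.01, adjusted p = 0.0290, without NCD replicate 1). The rise of this chaperone was smaller than that of either of its clients, while the GTPase gene *Rap1a*, once purified with the core, stood at 106 ± 12.9 and 108 ± 14.7 CPM (SD, n = 3; log2 difference 0.03, adjusted p = 0.929).

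Of the 9 activation genes, 4 were called higher and 0 lower. *Vav1*, an exchange factor that loads RAC proteins with GTP in blood cells, was read at 9.68, 14.8 and 10.96 CPM on NCD and at 49.3, 63.6 and 104 CPM on HFD (log2 difference 2.61, SE 0.34, adjusted p = 0.0219, edgeR). The other RAC exchange factors *Dock2* (2.29, adjusted p = 0.0259) and *Prex1* (1.84, adjusted p = 0.0212) and the inhibitor *Arhgdib* (1.80, adjusted p = 0.0271), which holds RAC in the cytosol, were also higher. In all 4 every HFD mouse was above every NCD mouse, which held for 20.5% of all genes tested. The log2 differences of *Vav1*, *Dock2*, *Prex1* and *Arhgdib* without NCD replicate 1 were 2.51, 2.09, 1.74 and 1.59, with adjusted p between 0.00838 and 0.0152 (edgeR). *Pak1* (1.502, adjusted p = 0.0527) and *Prkcd* (1.24, adjusted p = 0.0680), kinases that act on p47phox, and *Prkcb* (0.40, adjusted p = 0.417) did not pass with all mice and did without NCD replicate 1. The widely expressed inhibitor *Arhgdia* (0.50, adjusted p = 0.157) passed in neither. The proton channel gene *Hvcn1*, whose product balances the charge that the oxidase moves, was read at 16.1, 50.2 and 40.2 CPM on NCD and at 28.7, 12.1 and 12.7 CPM on HFD. The groups overlapped through NCD replicate 1 (log2 difference -0.99, adjusted p = 0.259, edgeR). Without that mouse the log2 difference was -1.33 and did not pass (adjusted p = 0.0683, edgeR).

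None of the 4 tested genes of other NOX and DUOX systems passed with all mice in edgeR, although 3 had an unadjusted p under 0.05, and DESeq2 called 2 higher and 1 lower and limma 0. *Duox1*, an oxidase of epithelia, had 0, 8 and 2 counts on NCD and 102, 48 and 24 on HFD, and its maturation factor *Duoxa1* had 3, 46 and 40 counts on NCD and 419, 118 and 137 on HFD (adjusted p = 0.0811 and 0.123, edgeR). Both pairs of groups were apart in counts, but the NCD counts are too few for a firm ratio. *Nox1*, *Noxa1*, *Duox2* and *Duoxa2* had 0 to 22 counts in any library and were not tested, and *Nox3* was not analysed here. *Noxo1*, the organiser used by NOX1, was 1.79 ± 0.0746 CPM on NCD and 2.14 ± 0.108 CPM on HFD (SD, n = 3; log2 difference 0.25, adjusted p = 0.536, edgeR). *Poldip2*, whose product binds p22phox, stood at 106 ± 24.5 and 59.3 ± 4.64 CPM (SD, n = 3; log2 difference -0.84, adjusted p = 0.0624) and was called lower without NCD replicate 1 (-0.99, adjusted p = 0.00931).

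Of the enzymes that act on the products, none of the 4 tested passed with all mice in edgeR (2 had an unadjusted p under 0.05, and DESeq2 called 1 higher and 1 lower and limma 0). The extracellular superoxide dismutase gene *Sod3* was read at 65.7, 281 and 301 CPM on NCD and at 767, 1024 and 1205 CPM on HFD, without overlap (log2 difference 2.21, SE 0.60, adjusted p = 0.0754). Its low value in NCD replicate 1 widened the NCD group, and without that mouse the log2 difference was 1.79 and passed (adjusted p = 0.0112). The cytosolic dismutase gene *Sod1* stood at 322 ± 46.3 CPM on NCD and 194 ± 30.2 CPM on HFD (SD, n = 3; log2 difference -0.73, adjusted p = 0.0854), and the catalase gene *Cat*, which removes hydrogen peroxide, at 236, 656 and 845 CPM on NCD and 459, 400 and 290 CPM on HFD (-0.60, adjusted p = 0.442). Without NCD replicate 1 *Sod1* (-0.79, adjusted p = 0.0375) and *Cat* (-0.96, adjusted p = 0.0449) were called lower.

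Likeness was measured as Pearson's r of log2(CPM + 1) over the 6 mice, for genes with a mean of at least 5 CPM, and is a description only, since all points share the diet difference. The genes most like *Cybb* were *Ptpro* (r = 0.998), *Lgals3* (0.998), *Adam19* (0.998), *Gpr183* (0.997) and *Dock2* (0.996), each highest in HFD replicate 1 and lowest in NCD replicate 1. *Lgals3*, which encodes galectin-3, rose from 37.5, 113 and 79.3 CPM on NCD to 1311, 455 and 571 CPM on HFD (log2 difference 3.34, adjusted p = 0.0341, edgeR), and *Ptpro*, a receptor phosphatase, from 5.79, 11.6 and 7.83 to 38.2, 20.1 and 24.4 CPM. The genes most like *Nox4* were *Col14a1* (r = 0.986), *Cercam* (0.976), *Sfrp4* (0.973), *Msln* (0.971) and *Gaa* (0.970), each highest in HFD replicate 2. They include *Col14a1*, a fibril-associated collagen, at 12.8, 21.7 and 14.998 CPM on NCD and 76.6, 91.7 and 29.0 CPM on HFD, and *Msln*, the mesothelial surface protein mesothelin, at 17.8, 18.8 and 14.8 CPM on NCD and 67.2, 124 and 47.5 CPM on HFD. With *Cybb*, r was 0.977 for *Cyba*, 0.930 for *Ncf1*, 0.950 for *Ncf4*, 0.961 for *Rac2* and 0.820 for *Nox4*.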

How the data were processed

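Raw read counts per gene were deposited by the authors as 1 table, with genes as NCBI identifiers and 1 column for each of the 3 NCD and 3 HFD mice (0 columns lacked a sample). Poly(A) RNA libraries were made with a stranded TruSeq kit. The submitters' processing notes name bcl2fastq 2.20.0, Trimmomatic, HISAT2 2.1.0, StringTie 1.3.4d, DESeq2 and the builds mm10 and GRCm38, without their roles, and the counting of reads shared between genes or strands is not described in the sources used here. Symbols were paired with 19742 of 19790 identifiers through RefSeq GRCm38.p6, and the other 48 held 0.629% of the counts. Coordinates and exon lengths (17793 genes) came from GENCODE vM21.

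Counts were filtered with filterByExpr (at least 10 counts, at least 15 in total) and TMM-scaled, and tests were run over 15241 genes with edgeR 4.0.16 (glmQLFit and glmQLFTest, R 4.3.3), HFD against NCD, with Benjamini-Hochberg adjustment and a threshold of 0.05. Alternatives were other scalings, no filter, DESeq2 1.42.0, limma 3.58.1 on log2(CPM + 1), removal of the 11 seminal vesicle genes, the replicate number as a block and leaving out each mouse. Ratios to the mean log2 CPM of the macrophage markers were an alternative chosen after seeing the data. Ratios were tested by exact permutation in Python 3.11.15 with numpy 2.4.6. The fits were tested on simulated data. Replicate libraries differed by more than sampling noise. The oxidase genes, partner genes and marker lists (macrophage, neutrophil, dendritic, B cell, T cell, adipocyte, endothelial, stromal progenitor, smooth muscle, seminal vesicle) were chosen with earlier results of these data known. Genes named are the 6 oxidase genes, the partner genes past the threshold with *Rac1* and *Cybc1*, and the 5 genes most like *Cybb* and *Nox4* each; other partner and marker genes named, *Hvcn1*, *Sod3* and *Cd68* among them, were picked after their values were seen. One gene of the partner list is not reported here and is left out of its counts.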

Additional observations from a re-analysis of the deposited data

How the results depend on the processing

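With 3 mice per diet a call over 15241 genes needs a small spread. *Nox4* had the fewest counts of the 6 oxidase genes, 48 to 99 on NCD. Its NCD mice lay close together (SD 0.105 CPM) and its HFD mice did not (5.58 ± 2.57 CPM, SD, n = 3). Why it missed the threshold was not tested. None of the log2 differences of the 6 oxidase genes changed sign under the settings of the fits, whereas that of the partner gene *Sod2*, which passed in neither fit, went from 0.25 to -0.02 without NCD replicate 1. Median-of-ratios scaling, upper-quartile scaling, limma, no filter on low counts and removal of the seminal vesicle genes changed no call among the 6 oxidase genes. Scaling by total counts, under which the all-gene median was 0.45 rather than -0.08, gave *Cybb* 2.33 and left it short of the threshold (adjusted p = 0.0503). DESeq2 called *Nox4* (1.87, adjusted p = 0.000521) and 13 partner genes, against 5 in edgeR, and 3904 genes in all, against 1139. Without NCD replicate 1, 3234 genes were called in all, 12 of them partner genes, and *Nox4* passed at 1.84. The range of log2 differences when 1 mouse was left out was 1.63 to 2.25 for *Cybb*, 2.22 to 2.63 for *Cyba*, 2.15 to 2.61 for *Ncf1*, 2.34 to 2.78 for *Ncf4*, 1.70 to 2.205 for *Rac2* and 1.55 to 2.196 for *Nox4*. The number of the 6 genes called then ran from 0 to 6 and that of partner genes from 0 to 12 (11 to 16 of the 20 had an unadjusted p under 0.05). Each of those fits has 1 mouse fewer than the main fit, but the one without NCD replicate 1 called more genes than the main fit. The others, which all keep that library, called 2 to 7 genes in all. The reason was not tested.

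The replicate numbers did not pair the mice, since the deviations of same-numbered mice from their group means had correlations of -0.05, -0.02 and -0.02, and the third HFD mouse carries the number 4 in its column name. With the replicate number as a block, edgeR called 12 genes in all, 0 of the 6 oxidase genes and 0 partner genes, of which 6 and 10 had an unadjusted p under 0.05. The log2 differences with the block were 1.95 for *Cybb*, 2.45 for *Cyba*, 2.49 for *Ncf1*, 2.61 for *Ncf4* and 1.99 for *Rac2*, with adjusted p between 0.0675 and 0.115.

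Against *Adgre1* alone in place of the summed macrophage markers, the difference between diets moved to -0.91 for *Cybb*, -0.41 for *Cyba*, -0.37 for *Ncf1*, -0.26 for *Ncf4*, -0.88 for *Rac2* and -1.13 for *Nox4*, and against *Cd68* alone to -1.26, -0.76, -0.72, -0.61, -1.23 and -1.48 in the same order. The log2 differences of these markers themselves were 2.86 and 3.17. The mean log2 level of the markers gave -0.15, 0.35, 0.39, 0.50, -0.12 and -0.37. Without each mouse in turn, the log2 difference ran from 0.36 to 0.68 for the ratio of *Cyba* to *Cybb*, from 0.03 to 0.21 for *Ncf4* to *Ncf1*, from 1.42 to 1.89 for *Rac2* to *Rac1* and from -0.14 to 0.71 for *Cybb* to *Nox4*, which changed sign without NCD replicate 1 or HFD replicate 3. Against the summed macrophage markers it ran from 0.41 to 0.58 for *Cyba*, from 0.33 to 0.77 for *Ncf1* and from 0.44 to 0.80 for *Ncf4*, and it took both signs for *Cybb* (-0.15 to 0.06), *Rac2* (-0.12 to 0.17) and *Nox4* (-0.65 to 0.19).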

Other observations

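Other cell type markers were read. Dendritic cell markers summed to between 11.9 and 16.9 CPM on NCD and between 18.8 and 22.6 CPM on HFD, and 0 of 4 were called by edgeR with all mice (1 had an unadjusted p under 0.05, and DESeq2 called 1 higher and limma 0). B cell markers summed to between 4.08 and 17.1 CPM on NCD and between 5.44 and 17.4 CPM on HFD, and T cell markers to between 6.90 and 11.7 CPM on NCD and between 7.23 and 13.4 CPM on HFD, with 0 of 4 called in each list by edgeR, DESeq2 or limma and 0 at an unadjusted p under 0.05. Endothelial markers summed to 202, 606 and 687 CPM on NCD and to 818, 687 and 680 CPM on HFD, with 0 of 4 called with all mice by edgeR, DESeq2 or limma (0 had an unadjusted p under 0.05 in edgeR) and 1 without NCD replicate 1. Smooth muscle markers summed to 4974, 601 and 184 CPM on NCD and to between 183 and 278 CPM on HFD, with 0 of 4 called with all mice by edgeR (3 had an unadjusted p under 0.05, and DESeq2 called 3 lower and limma 0) and 2 lower without NCD replicate 1. Of the 9 adipocyte markers 0 were called with all mice by edgeR (2 had an unadjusted p under 0.05, and DESeq2 called 2 lower and limma 0) and 4 were lower without NCD replicate 1, and of the 11 seminal vesicle genes 9 were lower with all mice and 11 without it. Beside these counts, edgeR called 5.58% of all genes tested higher and 1.9% lower with all mice. Without NCD replicate 1 it called 10.7% higher and 10.1% lower.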
